A study of Homo sapiens with 16 samples.

Results

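The genes described are the nuclear factors of canonical Wnt signalling that a dominant-negative LEF1 competes or partners with: the TCF/LEF factors LEF1, TCF7, TCF7L1 and TCF7L2, the corepressors TLE1, TLE2, TLE3 and TLE4, and CTNNB1, which encodes beta-catenin. They were chosen by symbol, and all 9 were found among the 26485 genes of the count tables. Poly(A) RNA came from SW480 and SW620 cells, colon cancer cell lines from the primary tumour and a later metastasis of 1 patient, both of which carry a truncated APC and high Wnt signalling. Each line carried either GFP, the mock control labelled Wnt high, or dnLEF1, labelled Wnt low, with 4 libraries in each of 4 groups, all at passage 6. The dnLEF1 protein lacks the part of LEF1 that binds beta-catenin and sits on Wnt target genes without switching them on. Which promoter drives the constructs, and whether a line is a clone or a pool of cells, was not given in the sources used here. The labels do not say that the libraries of a group came from separate cultures, so p-values cover only the spread among these libraries, part of which may be technical.

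Beta-catenin has no DNA-binding domain of its own. It enters the nucleus when the destruction complex of APC, axin, GSK3 and casein kinase fails to mark it for degradation, and it acts there by binding the N terminus of a TCF/LEF factor that sits on its DNA site. Without beta-catenin, TLE proteins bind the same factors and recruit histone deacetylases, so the same site can be active or repressed. In the intestine, TCF7L2 is the factor needed to keep crypt stem cells, TCF7L1 acts mostly as a repressor, and LEF1 is often switched on in colon tumours. LEF1 and TCF7 each also have an internal promoter whose short protein lacks the beta-catenin binding part, and reads counted per gene do not separate the long and short forms.

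The promoters of several members were read for TCF/LEF motifs, since dnLEF1 binds such letters. RefSeq lists 16 start sites for the 9 genes on GRCh38.p14, and a window of 250 bases before to 50 after each was searched on both strands for 4 motifs. The first is CTTTGAA and the second is CTTTGAT. The third is CTTTGTA, while the last one is CTTTGTT. They differ in their last letters, so a position counts once. Of the 16 windows 3 held a match, against 13.8% of 35116 windows of all genes (4829 windows). Shown are the 3 windows with a match and that of TLE1, the member with the largest rise, which held none. Each is cut at 11 bases before the start, runs 5′ to 3′ on the strand of the gene, and has the match in capitals. They lie at chr5:134123368-134123607 (TCF7, the second listed start, plus strand), chr10:113126383-113126622 (TCF7L2, the second listed start, plus strand), chr9:79572927-79573166 (TLE4, the second listed start, plus strand) and chr9:81689558-81689797 (TLE1, minus strand).
TCF7: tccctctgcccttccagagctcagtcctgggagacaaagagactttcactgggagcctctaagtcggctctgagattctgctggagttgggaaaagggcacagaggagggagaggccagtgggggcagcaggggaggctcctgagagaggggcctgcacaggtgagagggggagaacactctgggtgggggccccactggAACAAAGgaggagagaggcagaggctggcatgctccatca
TCF7L2: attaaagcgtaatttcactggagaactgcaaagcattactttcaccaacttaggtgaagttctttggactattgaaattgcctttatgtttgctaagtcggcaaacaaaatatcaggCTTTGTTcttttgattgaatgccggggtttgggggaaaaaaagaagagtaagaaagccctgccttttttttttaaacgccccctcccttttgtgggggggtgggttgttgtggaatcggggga
TLE4: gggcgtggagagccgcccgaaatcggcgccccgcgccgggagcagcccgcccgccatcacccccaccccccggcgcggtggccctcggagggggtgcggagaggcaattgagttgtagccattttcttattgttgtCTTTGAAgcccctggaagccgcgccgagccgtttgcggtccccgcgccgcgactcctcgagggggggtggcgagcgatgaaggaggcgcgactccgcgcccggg
TLE1: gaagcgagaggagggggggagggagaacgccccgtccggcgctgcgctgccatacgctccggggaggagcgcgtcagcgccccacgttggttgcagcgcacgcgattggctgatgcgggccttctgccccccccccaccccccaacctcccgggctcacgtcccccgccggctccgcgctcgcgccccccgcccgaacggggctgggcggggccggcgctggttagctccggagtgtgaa
The match of TCF7 is CTTTGTT read on the opposite strand (AACAAAG), 50 bases before that start. In TCF7L2 CTTTGTT stands 133 bases before the start, and in TLE4 CTTTGAA stands 114 bases before it. TCF7 and TCF7L2 fell with dnLEF1 in SW480. TLE4 was slightly higher, but its groups overlapped and its call was lost in 7 of 14 alternatives. Counts per gene do not assign reads to single starts. TLE1, TLE2, TLE3, LEF1, CTNNB1 and TCF7L1 had no match in any listed window, which says only that these letters are not there. The LEF1 window (chr4:108166252-108166551) and the CTNNB1 window (chr3:41199255-41199554) lie inside the gene spans given below. The bases at the outer 5′ ends of those spans, 108168956 and 41194741, were therefore not searched. A match is a description of the sequence and no evidence that a factor binds it.

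Gene counts ran from 17181204 to 26153506 per library. Values are CPM, read counts relative to the library's TMM-scaled total of gene counts over all 16 libraries, given in the order of replicates 1 to 4. Differences were tested by edgeR's quasi-likelihood test on every gene, and a gene was called where the p-value after Benjamini-Hochberg adjustment was below 0.05. The error after a log2 value is its approximate standard error, and that after a CPM, TPM, share or ratio is the SD over the 4 libraries. In SW620 GFP replicate 3, 39.4% of all reads were listed as aligned to more than 1 place, against 7.61% to 9.46% in the other 15 libraries. No pair of replicates agreed within counting noise. EPCAM, KRT8, KRT18 and KRT19, epithelial markers, were at 311 CPM or more in every group mean. In SW480 all 4 were lower with dnLEF1 (KRT8 at 5471 and 3715, KRT18 at 4926 and 3265, KRT19 at 886 and 521 CPM), and the sum of 8 epithelial markers went from 10724 to 12483 CPM with GFP to 7090 to 8512 CPM with dnLEF1, without overlap. In SW620 that sum was 9934 to 12247 and 8533 to 10835 CPM. The colonic keratin KRT20 was at 0.279 CPM or less. In SW480 dnLEF1 the intestinal factor CDX2 was at 0.131 CPM and the microvillus gene VIL1 at 2.43 CPM, against 12.2 and 35.0 CPM with GFP. CDH1, also among the 8, went the other way in SW480, from 13.3 CPM with GFP to 39.0 CPM with dnLEF1. Most of the epithelial sum is KRT8 and KRT18, so it says little about the other markers. Of 6 immune markers PTPRC, CD3E and TYROBP had no count in SW480 dnLEF1, and the summed level of the 6 was 2.29 to 4.15 CPM in SW480 GFP and 4.63 to 5.88 CPM in SW480 dnLEF1, and 1.13 to 2.59 and 3.12 to 4.15 CPM in SW620 GFP and dnLEF1, most of it LYZ. The sum of 4 endothelial markers went from 0.434 to 1.37 CPM with GFP to 2.19 to 3.79 CPM with dnLEF1 in SW480, most of it VWF. The sum of 7 fibroblast markers was 18.0 to 33.3 CPM in SW480 GFP and 22.9 to 53.3 CPM in SW480 dnLEF1, with COL1A1 at 4.84 and 28.1 CPM and LUM at 7.20 CPM and 0. The part of these marker shifts in the results below was not tested. In bulk samples fewer cells that express a gene and less RNA per cell cannot be told apart.

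With dnLEF1, TLE1 and TLE2 rose and TCF7, TCF7L2, TLE3 and CTNNB1 fell in SW480, and LEF1, counted together with the construct, rose in both lines. All 9 members passed the test in SW480, 5 higher and 4 lower, where 48.5% of the 14426 genes tested did, 24.2% higher and 24.4% lower. The 5 higher became 3 when any of SW480 GFP replicates 1, 2 or 3 or dnLEF1 replicates 2, 3 or 4 was left out, with TCF7L1 and TLE4 losing their calls, while the 4 lower stayed called. TLE1 rose 20.8-fold and TLE2 4.63-fold, while TCF7, TCF7L2, TLE3 and CTNNB1 fell between 1.76-fold and 2.17-fold. In SW620, 6 of the 9 could be tested. LEF1 rose, CTNNB1 fell 1.15-fold and 4 did not pass, where 8.46% of 13336 genes did, 6.03% higher and 2.43% lower. TLE1, TLE2 and TLE4 were too low in SW620 to enter the test. The median log2 change of the tested members was 0.27 in SW480 and 0.02 in SW620, beside -0.0013 and -0.0044 over all genes tested. LEF1, with its construct reads, is in these counts and medians, so they are no measure of the cells' own genes alone. Without LEF1 the median of the members in SW480 would be below 0. In SW620 it would be the TLE3 value, -0.0062, near the median of all genes. Of the 6 members that could be tested in both lines, the effect itself differed between the lines for 5, each with a difference above 0 (SW620 minus SW480), where 28.5% of 14926 genes differed, 16.2% above and 12.3% below. LEF1, with its construct reads, is among the 5. This comparison uses the same libraries as those within each line.

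**Figure D1:**
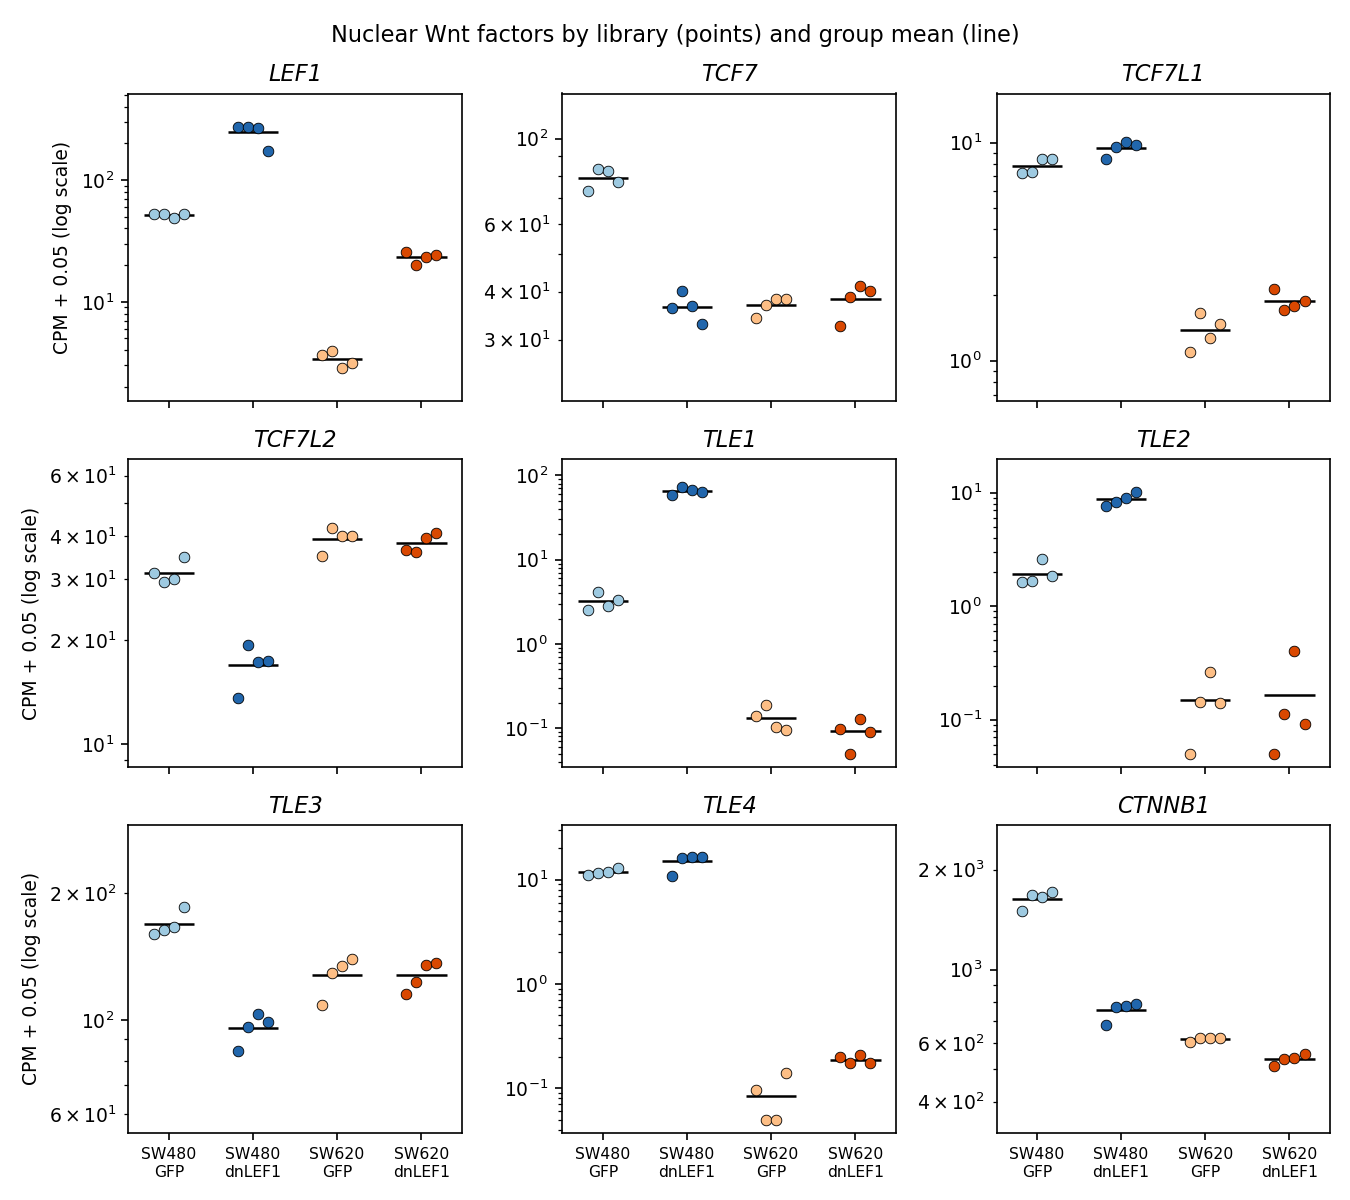
Level of each member in every library, as CPM plus 0.05 on a log axis (each panel has its own range), with points for the 4 libraries of a group and a line at their mean. TLE1 stands at 57.9 to 71.8 CPM in SW480 dnLEF1 and at no more than 4.07 CPM in any other library, and TLE1, TLE2 and TLE4 lie near 0 in both SW620 groups.

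LEF1 was read first, since dnLEF1 is made from it and its level checks the labels. The gene lies on chromosome 4 at 108047545 to 108168956 of hg38, minus strand. Its level was 52.6, 52.3, 48.8 and 52.9 CPM in the SW480 GFP libraries and 273, 271, 269 and 173 CPM in the SW480 dnLEF1 libraries. In SW620 it was 3.63, 3.92, 2.82 and 3.08 CPM with GFP and 25.6, 20.1, 23.2 and 24.2 CPM with dnLEF1. Every dnLEF1 library was above every GFP library of its line, but the highest SW620 dnLEF1 library stood at 25.6 CPM, under the lowest SW480 GFP library. The log2 change was 2.26 ± 0.12 in SW480 (edgeR adjusted p = 2.37e-09) and 2.79 ± 0.12 in SW620 (edgeR adjusted p = 7.94e-09). SW480 dnLEF1 replicate 4 stood apart at 173 CPM, and without it the change in SW480 was 2.39. Without SW620 GFP replicate 3, the library with many reads aligned to several places, the change in SW620 was 2.72. The change was larger in SW620 by 0.53 ± 0.19 on the log2 scale (edgeR adjusted p = 0.0431), a difference that lost its call in 10 of 21 alternatives, with adjusted p up to 0.111. It was 0.40 without SW480 dnLEF1 replicate 4. Counts per gene hold reads of the construct and of the cells' own LEF1 alike, so the change of the cells' own LEF1 is unknown.

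LEF1-AS1 is an RNA gene that starts within LEF1 and runs away from it on the plus strand (chromosome 4, 108167525 to 108258037), and it was picked after its values had been seen. It had 22, 45, 35 and 35 counts in the SW480 GFP libraries and 2, 4, 0 and 2 counts with dnLEF1. All 4 GFP libraries held more counts than the dnLEF1 libraries, which is given as a description because the gene was chosen for it. In SW620 it had 6 counts over the GFP libraries and 12 with dnLEF1. The strand setting of the counting is not given in the sources used here, so reads of overlapping genes on opposite strands cannot be told apart.

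TCF7 encodes TCF1, an activating partner of beta-catenin and itself a known Wnt target. It lies on chromosome 5 at 134114681 to 134151865, plus strand. In SW480 it stood at 73.1, 83.4, 82.4 and 77.2 CPM with GFP and at 36.3, 40.1, 36.7 and 32.9 CPM with dnLEF1. The groups were far apart, and TCF7 fell 2.16-fold (log2 -1.11 ± 0.07, edgeR adjusted p = 2.38e-08). In SW620 it was at 34.1, 36.8, 38.2 and 38.3 CPM with GFP and at 32.5, 38.7, 41.2 and 40.1 CPM with dnLEF1. Those groups overlapped (log2 0.05 ± 0.08, edgeR adjusted p = 0.796), and all 8 SW620 libraries lay near the level of SW480 dnLEF1. Between SW480 and SW620 the effect of dnLEF1 differed by 1.16 ± 0.11 (edgeR adjusted p = 6.16e-08). SKP1, a ubiquitin ligase subunit gene on the opposite strand that overlaps the 3′ end of TCF7, was more abundant, at 444 ± 14.0 CPM in SW480 GFP, and fell less (log2 -0.23 ± 0.06, edgeR adjusted p = 0.0101).

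TCF7L2 encodes TCF4, the main TCF factor of the intestinal crypt. It lies on chromosome 10 at 112950247 to 113167678, plus strand. In SW480 it went from 31.2, 29.4, 30.0 and 34.8 CPM with GFP to 13.6, 19.3, 17.3 and 17.3 CPM with dnLEF1. Without overlap between the groups it fell 1.85-fold (log2 -0.89 ± 0.10, edgeR adjusted p = 5.5e-06). In SW620 it was at 35.0, 42.1, 40.1 and 40.0 CPM with GFP and 36.4, 35.97, 39.4 and 40.9 CPM with dnLEF1 (log2 -0.04 ± 0.07, edgeR adjusted p = 0.833). The 2 SW620 groups overlapped, and the effect differed between the lines by 0.85 ± 0.13 (edgeR adjusted p = 3.38e-05).

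TCF7L1 encodes TCF3, the repressor among the 4, and lies on chromosome 2 at 85133392 to 85310387, plus strand. In SW480 it was at 7.19, 7.29, 8.33 and 8.39 CPM with GFP and at 8.40, 9.52, 9.97 and 9.72 CPM with dnLEF1. The groups only just did not overlap (log2 0.27 ± 0.11, edgeR adjusted p = 0.0461), but 8 of 14 alternatives lost the call, 7 of them by leaving out 1 library, with adjusted p up to 0.113. In SW620 it was at 1.04, 1.61, 1.22 and 1.43 CPM with GFP and 2.08, 1.66, 1.73 and 1.82 CPM with dnLEF1, again without overlap but not past the test (log2 0.45 ± 0.20, edgeR adjusted p = 0.226). The effects of the lines differed by 0.18 ± 0.20, which did not pass (edgeR adjusted p = 0.535).

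Among the corepressors, TLE1 had the largest change of all members. TLE1 tetramers bind TCF/LEF and many other repressors, and the gene lies on chromosome 9 at 81583683 to 81689547, minus strand. In SW480 it rose from 2.49, 4.07, 2.81 and 3.24 CPM with GFP to 57.9, 71.8, 67.2 and 63.6 CPM with dnLEF1. The lowest dnLEF1 library, at 57.9 CPM, lay far above the highest GFP library, at 4.07 CPM (log2 4.38 ± 0.12, edgeR adjusted p = 4.08e-12). In SW620 there were 7 TLE1 counts over the 4 GFP libraries and 4 over the 4 dnLEF1 libraries, with no more than 3 in any, a ratio of dnLEF1 to GFP of 0.564 with a 95% exact interval of 0.121 to 2.22. Intervals of such ratios cover counting error only. With dnLEF1 in both lines, SW480 held 1403 times the SW620 level (95% interval 548 to 5152). With so few reads in SW620, no test of the difference between the lines is given for TLE1, TLE2 or TLE4.

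TLE2 (chromosome 19, 2997639 to 3047635, minus strand) also rose in SW480, from a lower level. In SW480 it went from 1.58, 1.61, 2.57 and 1.78 CPM to 7.57, 8.30, 8.84 and 10.001 CPM, with no overlap (log2 2.21 ± 0.17, edgeR adjusted p = 9.21e-08). In SW620 it had 8 counts with GFP and 11 with dnLEF1, of which 9 were in dnLEF1 replicate 3 (ratio 1.36, 95% interval 0.497 to 3.89).

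TLE3 had the highest mean CPM of TLE1 to TLE4 in every group. Per length, its order against TLE1 in SW480 dnLEF1 depended on the length used. The TLE3 gene lies on chromosome 15 at 70047790 to 70098176, minus strand. In SW480 it went from 160.3, 163, 166 and 186 CPM with GFP to 84.3, 96.4, 103 and 98.8 CPM with dnLEF1. It fell 1.76-fold without overlap (log2 -0.82 ± 0.07, edgeR adjusted p = 5.94e-07). In SW620 it was at 109, 129.5, 134 and 139.7 CPM with GFP and at 115, 123, 135 and 137 CPM with dnLEF1. The SW620 groups covered the same range (log2 -0.01 ± 0.08, edgeR adjusted p = 0.978, with a sign that turned when 1 of 4 libraries was left out), and the lines differed in the effect by 0.81 ± 0.11 (edgeR adjusted p = 1.5e-05).

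TLE4 (chromosome 9, 79571773 to 79726882, plus strand) showed the weakest case of the corepressors. In SW480 it was at 10.9, 11.5, 11.7 and 12.9 CPM with GFP and at 10.7, 15.9, 16.5 and 16.4 CPM with dnLEF1. Replicate 1 of dnLEF1 lay below all GFP libraries and the other 3 above them (log2 0.34 ± 0.13, edgeR adjusted p = 0.0384), but 7 of 14 alternatives lost the call, with adjusted p up to 0.108. In SW620 it had 3 counts over the GFP libraries and 12 over the dnLEF1 libraries, a ratio of 3.95 with a 95% interval of 1.07 to 21.8, and was not tested. AES (now TLE5), a short family member that lacks the WD40 domain and can oppose the long forms, was at 159.7 ± 13.6 CPM in SW480 GFP and rose 1.33-fold with dnLEF1 (log2 0.41 ± 0.08, edgeR adjusted p = 0.00089). In SW620 AES did not pass (log2 0.09 ± 0.07, edgeR adjusted p = 0.521).

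CTNNB1 lies on chromosome 3 at 41194741 to 41260096, plus strand, and its mRNA was the most abundant of the 9 in every group. In SW480 it was at 1503, 1677, 1649.6 and 1712 CPM with GFP and at 681, 769, 775 and 786 CPM with dnLEF1. It fell 2.17-fold (log2 -1.12 ± 0.07, edgeR adjusted p = 1.38e-08), and the highest dnLEF1 library, at 786 CPM, lay far below the lowest GFP library, at 1503 CPM. In SW620 it was at 607, 622, 620.4 and 620.2 CPM with GFP and at 513, 537, 541 and 558 CPM with dnLEF1, a small fall with no overlap (log2 -0.20 ± 0.05, edgeR adjusted p = 0.0228). That call was lost when any of SW620 GFP replicate 2, 3 or 4 or dnLEF1 replicate 1 was left out (log2 -0.20 to -0.18, adjusted p 0.0574 to 0.0873). The effect differed between the lines by 0.92 ± 0.08 (edgeR adjusted p = 2.66e-08). These are mRNA levels, and beta-catenin is controlled mainly as a protein, which was not measured.

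JUP encodes plakoglobin, the close relative of beta-catenin that joins desmosomes and can bind TCF factors. In SW480 it was at 133 ± 27.4 CPM with GFP and 133 ± 18.7 CPM with dnLEF1 (log2 -0.00 ± 0.14, edgeR adjusted p = 0.998). In SW620 it stood at 107 ± 2.98 CPM with GFP and fell to 68.2 ± 4.03 CPM with dnLEF1 (log2 -0.65 ± 0.06, edgeR adjusted p = 7.86e-06). The effects of the lines differed (log2 -0.65 ± 0.17, edgeR adjusted p = 0.00553). AXIN2, read as a measure of Wnt output, stood at 550.2 ± 11.2 CPM in SW480 GFP, 333 ± 14.6 CPM in SW620 GFP and 319.8 ± 11.2 CPM in SW620 dnLEF1. It was at 71.5, 72.5, 72.0 and 63.1 CPM in the SW480 dnLEF1 libraries, and the lowest value came from replicate 4, the library with the least LEF1 of that group. AXIN2 fell 7.87-fold in SW480 (log2 -2.98 ± 0.07, edgeR adjusted p = 1.22e-12). In SW620 the groups overlapped and it did not pass (log2 -0.06 ± 0.05, edgeR adjusted p = 0.607), although dnLEF1 is labelled Wnt low there too. The effect differed between the lines by 2.92 ± 0.08 (edgeR adjusted p = 1.02e-15).

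**Figure D2:**
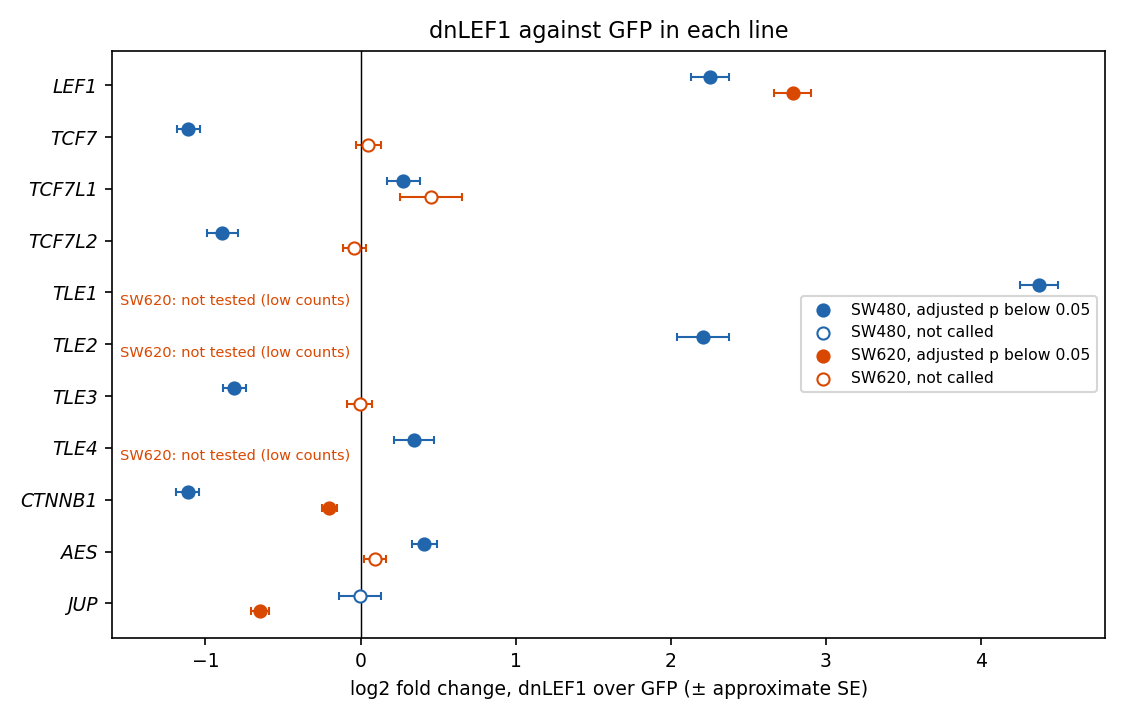
Log2 change of dnLEF1 over GFP for each member, AES and JUP in SW480 (blue) and SW620 (orange), with bars of 1 approximate standard error and filled points where edgeR's adjusted p was below 0.05. TCF7, TCF7L2, TLE3 and CTNNB1 lie between -1.12 and -0.82 in SW480, while in SW620 the largest fall among them is -0.20.

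Levels of different genes were compared per length, in TPM, here the counts per kilobase of merged exons (GENCODE 44) scaled to the same total in each library. In SW480 GFP the order was CTNNB1 at 629, TLE3 at 60.5, LEF1 at 43.6, TCF7 at 35.4, TCF7L2 at 21.1, TCF7L1 at 7.96, TLE4 at 6.42, TLE1 at 2.71 and TLE2 at 2.06 TPM. Neighbours in that order whose libraries overlapped were TCF7L1 with TLE4 and TLE1 with TLE2. With dnLEF1 TLE1 moved from the eighth place to the third, at 54.1, above TLE3 at 33.1. TCF7L2 at 10.9, TCF7L1 at 9.25, TLE2 at 9.12 and TLE4 at 7.85 then overlapped in turn. In SW620 GFP the order was CTNNB1 at 216, TLE3 at 41.8, TCF7L2 at 24.0, TCF7 at 15.0, LEF1 at 2.57 and TCF7L1 at 1.23, with TLE2, TLE1 and TLE4 below 0.1. With dnLEF1 in SW620 LEF1 came to 17.8, overlapping TCF7 at 15.5. Lengths set part of this order. With the longest annotated transcript in place of merged exons TCF7 (45.8) and LEF1 (44.8) overlapped in SW480 GFP, as did TLE1 (47.0) and TLE3 (36.5) in SW480 dnLEF1. With coding length 3 orders turned without overlap. In SW480 GFP TCF7 made up 45.9% and LEF1 36.2% of the TCF/LEF mRNA. In SW620 TCF7 passed TCF7L2, at 50.8% against 42.1% with GFP and 39.2% against 30.5% with dnLEF1. In SW480 dnLEF1 TLE3 made up 51.6% and TLE1 35.7% of the TLE mRNA.

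LEF1, construct included, made up most of the TCF/LEF mRNA of SW480 with dnLEF1. Its share of the 4 factors, per kilobase of merged exons, was 40.4% ± 1.45 (SD, n = 4) with GFP and 84.4% ± 3.06 with dnLEF1. TCF7 went from 32.8% to 6.78%, TCF7L2 from 19.5% to 4.76% and TCF7L1 from 7.37% to 4.04%. In SW620, where TCF7L2 made up 56.0% ± 0.908 of the GFP pool with merged exons but came behind TCF7 with coding length, LEF1 went from 6.05% ± 1.01 to 30.6% ± 2.72 and TCF7L2 to 39.9% ± 0.702. Each of these shifts had an exact two-sided permutation p of 0.0286, the smallest that 4 against 4 libraries allow, and 0.0343 after Benjamini-Hochberg adjustment over 12 tests. The construct is counted as LEF1, which by itself raises that share and lowers the others. These p-values are therefore no evidence on the cells' own factors. Construct reads were divided by the merged-exon length of the whole LEF1 gene, so the LEF1 share also rests on that length. The shift of TCF7L1 in SW480 lost its call without SW480 GFP replicate 3 or 4 (adjusted exact permutation p = 0.0686). The share of TCF7L1 in SW620 did not pass (2.86% and 2.90%, exact permutation p = 0.886). Shares add to a fixed total, so a share can fall because LEF1 rose: the TCF factors without LEF1 summed to 64.4 ± 3.50 and 35.95 ± 4.01 TPM in SW480, but to 40.3 ± 3.81 and 40.4 ± 3.86 in SW620.

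The makeup of the corepressor pool shifted in SW480, while in SW620 TLE3 made up nearly all of it in both groups. With merged exons TLE3 made up 84.4% ± 0.956 of the TLE mRNA in SW480 GFP and 31.8% ± 1.02 with dnLEF1, while TLE1 went from 3.78% ± 0.824 to 51.9% ± 1.96 and TLE2 from 2.88% to 8.79%. The summed TLE level of SW480 was 71.7 ± 6.36 TPM with GFP and 104 ± 12.3 with dnLEF1 by merged exons, but 85.5 ± 7.87 and 81.7 ± 9.92 TPM by coding length, where the groups overlapped, so the direction of the sum depends on the length used. In SW620 TLE3 was 99.6% ± 0.134 of the pool with GFP and 99.5% ± 0.402 with dnLEF1. The ratio of TLE1 to TLE3 was 0.0449 ± 0.0102 in SW480 GFP and 1.64 ± 0.110 in SW480 dnLEF1 by merged exons, and 0.0190 ± 0.0043 and 0.692 ± 0.0466 by coding length. It was higher with dnLEF1 by both, but above 1 only by merged exons and the longest transcript. These other lengths for the sum and the ratio were chosen after seeing the data. The ratio of CTNNB1 to TCF7 was 17.8 ± 0.857 with GFP and 17.8 ± 2.00 with dnLEF1 in SW480.

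**Figure D3:**
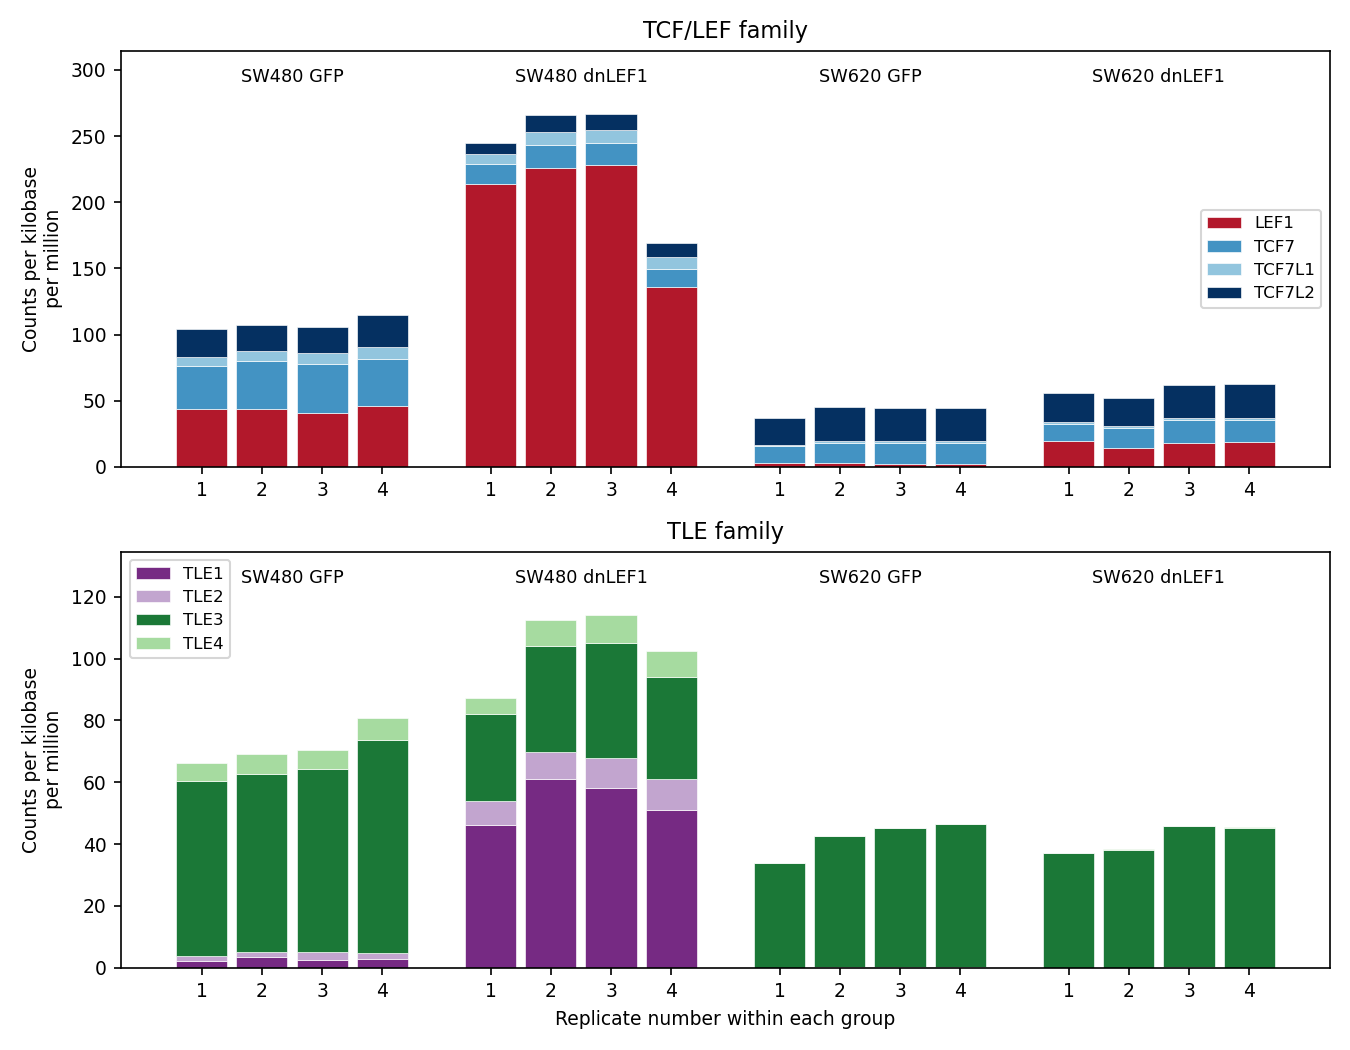
Summed level of the TCF/LEF factors (top) and of the TLE corepressors (bottom) in each library, in TPM by merged exons. LEF1, construct included, fills 80.1% to 87.1% of the upper stack in SW480 dnLEF1. TLE1 makes up 49.7% to 54.2% of the lower stack there (35.7% on average by coding length), while the lower stacks of SW620 hold almost only TLE3.

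The GFP libraries of the lines were also compared. This comparison shares the SW480 GFP libraries with the one above, and 78% of the 14350 genes tested passed in it, 37.7% higher and 40.3% lower, so a call alone says little about a member. TLE1, TLE2 and TLE4 entered the test only through SW480 and are given below by their counts. Of the other 6 members 5 were lower in SW620 GFP than in SW480 GFP and 1 was higher. LEF1 was 15.4-fold lower in SW620 (log2 -3.94 ± 0.10), TCF7L1 5.87-fold, CTNNB1 2.66-fold, TCF7 2.15-fold and TLE3 1.32-fold, with edgeR adjusted p from 8.01e-14 for LEF1 to 0.000226 for TLE3. TCF7L2, the exception, was 1.25-fold higher in SW620 (log2 0.32 ± 0.08, edgeR adjusted p = 0.00161), with no overlap between 29.4 to 34.8 and 35.0 to 42.1 CPM. TLE4 had 1062 counts in SW480 GFP and 3 in SW620 GFP, a ratio of 332 (95% interval 113 to 1611). TLE1 was 38.0 times (18.2 to 95.4) and TLE2 19.8 times (9.82 to 46.6) as high in SW480 GFP. Of TLE1 to TLE4 only TLE3 was above 1 CPM in any SW620 library.

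Members were also set beside the 24 nearest tested genes, 12 on each side, to show whether a member moved with its surroundings. Around TCF7 21 of the 24 genes were lower in SW480 dnLEF1, 18 of them called, with a median log2 change of -0.32, and TCF7 lay 0.79 below it. Around TCF7L2 19 of 24 were lower with a median of -0.40, and TCF7L2 lay 0.49 below that. With 25 genes on each side the median was -0.36 around TCF7 and -0.17 around TCF7L2. Around TLE2 22 of 24 were higher with a median of 0.22, against 2.21 for TLE2. For the other 6 members the median of the neighbours was between -0.16 and -0.02. LEF1, TLE1 and TLE2 each rose more than any of their 24 neighbours, the highest of which changed by 1.07, 0.80 and 1.69. The LEF1 value holds reads of the construct, so it does not show how the cells' own gene moved beside its neighbours. The falls of TCF7, TCF7L2 and CTNNB1 were not the largest around them, and that of TLE3 was level with that of its neighbour CALML4 (both -0.82). Next to TCF7 (-1.11), FSTL4 changed by -1.47. Several neighbours of TCF7L2 (-0.89) fell more than it did, among them HSPA12A (-2.36), RBM20 (-1.43) and VWA2 (-1.07). Around CTNNB1, FAM198A (-1.53) and MYRIP had lower log2 changes. In SW620 the medians ran from -0.07 to 0.04. TLE1 and TLE4 lie near each other on chromosome 9 and share most of their neighbours. The part of these regional shifts in the changes of TCF7 and TCF7L2 was not tested.

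**Figure D4:**
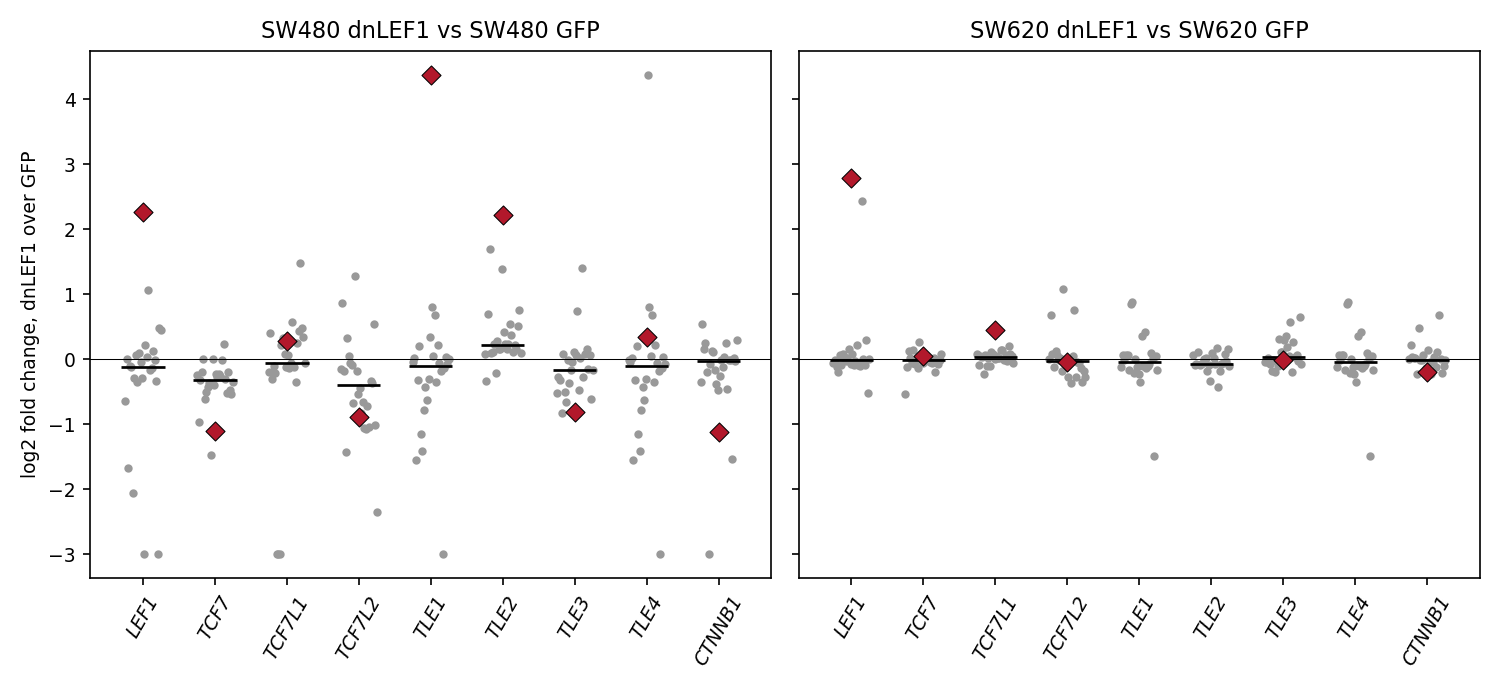
Log2 change of each member (red diamonds) and of its 24 nearest tested genes (grey points, with a line at their median) in SW480 and SW620. The diamonds of LEF1 include reads of the construct. In SW480 8 points below -3 are drawn at -3. The line lies at -0.32 for TCF7 and -0.40 for TCF7L2, and near 0 for every member in SW620.

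Partners of the members were read from 4 lists, of which all 103 entries were found in the tables. In SW480 most genes of a list around the beta-catenin destruction complex fell, no test of the list being made. Of its 27 tested genes 17 fell and 3 rose, where 24.4% of all genes fell and 24.2% rose, with a median log2 change of -0.25 against -0.0013 for all genes. Besides AXIN2, APC fell 1.77-fold, from 68.6 ± 7.65 to 38.8 ± 6.01 CPM (edgeR adjusted p = 1.77e-05), and CSNK1A1, the kinase that primes beta-catenin, fell 1.36-fold. The falls also hold TNKS and TNKS2, whose products mark axin for removal, and USP7, a deubiquitinase (log2 -0.34, -0.28 and -0.30), so they are not all of genes that lower beta-catenin. The kinase gene CSNK1D rose 1.28-fold, and the phosphatase genes PPP2R5A and PPP2R1A each rose 1.25-fold. The 24 neighbours of APC, on chromosome 5, had a median of -0.50 with 23 lower, and those of CSNK1A1 a median of -0.16. SKP1 and PPP2CA of this list lie in the lower neighbourhood of TCF7. In SW620 the scaffold gene AMER1 fell 1.304-fold and CUL1 rose 1.14-fold among 26 tested, a rise that was lost when 1 of 6 libraries was left out. Over all genes of SW620, 6.03% rose and 2.43% fell.

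Of 29 tested co-activators and chromatin partners of beta-catenin, 10 fell and 2 rose in SW480, with a median of -0.10, where 24.4% of all genes fell and 24.2% rose. TNIK, a kinase that phosphorylates TCF4, fell 2.40-fold, from 78.0 ± 4.74 to 32.5 ± 6.24 CPM (edgeR adjusted p = 4.08e-07). The Mediator kinase gene CDK8 fell 2.21-fold (edgeR adjusted p = 1.38e-08) and the acetyltransferase gene EP300 1.41-fold. PYGO1, an adaptor that links the beta-catenin complex to chromatin, rose 2.82-fold from 0.862 ± 0.253 CPM, and PAF1, of the polymerase-associated complex, rose 1.15-fold. The number of falls was 5 without SW480 GFP replicate 4 or dnLEF1 replicate 4 and 6 without GFP replicate 1, and that of rises 1 without GFP replicate 4. In SW620 TBL1X, a subunit of the corepressor exchange complex, was the 1 of 28 that fell (1.36-fold, edgeR adjusted p = 0.00372), where 2.43% of all genes fell.

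Of 27 tested repressors and co-factors of TLE, 6 rose and 9 fell in SW480, with a median of -0.04, where 24.2% of all genes rose and 24.4% fell. HDAC9, a class IIa deacetylase, was the 1 gene of this list called in both lines. It rose from 1.80 ± 0.340 to 14.9 ± 2.09 CPM in SW480 (8.19-fold, edgeR adjusted p = 1.23e-09) and from 2.81 ± 0.384 to 7.03 ± 0.443 CPM in SW620 (2.50-fold, edgeR adjusted p = 2.36e-05). CTNNBIP1, which encodes ICAT, a small protein that blocks beta-catenin from binding TCF, rose 1.31-fold in SW480. NLK, the kinase that phosphorylates TCF/LEF and lowers their binding to DNA, fell 2.04-fold, and the corepressor genes CTBP2 and NCOR1 fell 1.28-fold and 1.35-fold.

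Among 17 tested partners of beta-catenin at the membrane 3 rose and 6 fell in SW480, again beside 24.2% and 24.4% of all genes. The receptor kinase gene MET rose 4.23-fold, from 44.4 ± 4.57 to 187.8 ± 19.1 CPM, and the cadherin genes CDH1 and CDH3 2.94-fold and 1.92-fold. CTNNA1, alpha-catenin, fell 1.71-fold. CDH17 and CTNNA2 had no count in any SW480 dnLEF1 library and stood at 6.69 ± 3.04 and 2.55 ± 0.597 CPM with GFP, through which alone they entered the test and the count of 6. In SW620, of 15 tested, 2 rose and 4 fell, where 6.03% of all genes rose and 2.43% fell. MET rose 1.43-fold and EGFR went from 0.119 ± 0.122 to 1.61 ± 0.406 CPM, while CDH1, CDH17 and CTNND1 fell besides JUP. EGFR entered that test only through dnLEF1 and CDH17 only through GFP, so their calls and places in these counts rest on that. CDH17 was at 0.833 CPM in SW620 with GFP and 0.246 CPM with dnLEF1, and its call was lost in 1 fit of all libraries (adjusted p = 0.0670). CDH1 thus moved in opposite directions in the lines, up in SW480 and down 2.41-fold in SW620.

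The genes whose log2 CPM followed a member most closely over the 16 libraries are given as a description, since the libraries form 4 groups and the likeness rests mostly on the group means. For LEF1 they were MTUS1 (Pearson r 0.989), GJC1 and ORAI2, of 10989 genes with a mean of at least 5 CPM. MTUS1 went from 12.8 to 87.1 CPM in SW480 and from 0.137 to 3.04 CPM in SW620. For TCF7 they were ETV3 (0.975), TMPRSS15 and LINC00341, for TCF7L2 DUSP4 (0.991) and KLF5, and for CTNNB1 MYO1D (0.993), BCL2L15 and EFNB1. For TLE1 they were EXT1 (0.995), LYPD1 and ADAM9, for TLE2 ABHD8 (0.984), CYR61 and ANKMY2, for TLE3 STT3B (0.972), C1orf116 and FAM169A, for TLE4 ARHGEF40 (0.996), MCAM and WASL, and for TCF7L1 EPHB4 (0.993), BET1 and ASAP3. KLF5 was at 124 CPM in SW480 GFP and 42.7 CPM in SW480 dnLEF1, against 209 and 189.6 CPM in SW620.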

How the data were processed

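Gene-level RNA-seq tables of 16 libraries were used, 4 in each of 4 groups taken from the labels. They hold unnormalised read counts for each gene, as deposited by the authors. Trimmomatic, TopHat2, HTSeq and DESeq2, and the hg38 build, are named in the submitters' processing notes. No version, annotation or strand setting was given in the sources used here. Reads aligned to more than 1 place are listed apart from the genes, so near-identical copies would be undercounted. Per the file headers and rows, each table lists 26485 symbols and 5 summary lines. The summary lines stayed out of library sizes and tests. They took 20.0% to 24.3% of the total, except in SW620 GFP replicate 3, where they took 50.5%. No replicate pair agreed within counting noise (chi-square per degree of freedom 1.99 to 22.2).

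Counts were tested with edgeR 4.0.16 (limma 3.58.1, R 4.3.3): TMM scaling, filterByExpr by group, quasi-likelihood test, Benjamini-Hochberg adjustment over all genes, called below 0.05. Comparisons between 2 groups were fitted on their 8 libraries, and the line difference as an interaction on all 16. Standard errors are the log2 change over the root of F. The code was tested on simulated data. Shares of the TCF/LEF pool were compared by exact permutation. Lengths and positions come from GENCODE 44, matched for 92.6% of symbols, and promoters from RefSeq on GRCh38.p14. Protein sequences were not analysed here.

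The members and the 4 gene lists were chosen with earlier results of these data known. Named are all members, JUP, AES and AXIN2, up to 3 called rises and 3 falls of each list and line by adjusted p, and the 3 genes most like each member, of which 1 is not reported here. LEF1-AS1, SKP1, PPP2CA, CTNND1, TNKS, TNKS2, USP7, CALML4, FAM198A, MYRIP and the cell type markers are named besides. So are the neighbours FSTL4, HSPA12A, RBM20 and VWA2. Alternatives were DESeq2 1.42.0, its size factors in edgeR, no filter, limma voom, 1 fit of all libraries, the replicate number as a block, each library left out in turn, other gene lengths and 25 neighbours.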

Additional observations from a re-analysis of the deposited data

Results flagged for a closer look

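In groups of 4 libraries, a library was looked at again where its gap to the nearest other exceeded Dixon's 95% limit. Of 36 member and group combinations 5 did, where chance gives about 1 in 20. LEF1 was at 173 CPM in SW480 dnLEF1 replicate 4 and the other 3 at 269 to 273 CPM. It was at 48.8 CPM in SW480 GFP replicate 3, close to 52.3 to 52.9 CPM in the others. TLE4 was at 10.7 CPM in SW480 dnLEF1 replicate 1, against 15.9 to 16.5 CPM. CTNNB1 was at 681 CPM in the same library, against 769 to 786 CPM. CTNNB1 was at 607 CPM in SW620 GFP replicate 1, against 620.2 to 622 CPM.

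The dnLEF1 effect of 5 members differed between the lines by the interaction test. On the log2 scale, as the SW620 effect minus the SW480 effect, the difference was 0.53 for LEF1, 1.16 for TCF7, 0.85 for TCF7L2, 0.81 for TLE3 and 0.92 for CTNNB1. LEF1 counts include the construct. The fit also gave -5.13 for TLE1, which entered it only through SW480 and had 11 counts in all of SW620, so that value is not taken as a tested difference.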

How the results depend on the processing

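The calls of LEF1, TCF7, TCF7L2, TLE1, TLE2, TLE3 and CTNNB1 in SW480, of LEF1 in SW620 and, between the GFP groups, of the 6 members that did not enter the test through SW480 alone kept their direction and side of the threshold in all 14 alternatives. With 1 library left out, the members higher in SW480 numbered 3 to 5 and the members lower in SW620 0 to 1, and the members with a lower line difference 1 to 2. They numbered 2 under DESeq2, limma voom and the replicate block, where TLE2 passed besides TLE1. Both entered that fit only through SW480. JUP in SW480 turned sign: 0.0023 with DESeq2 size factors, 0.0031 with no filter, 0.0019 in DESeq2, 0.015 in limma voom, 0.013 with the block and -0.14 to 0.093 with 1 library left out. TLE3 in SW620 ran from -0.079 to 0.040 with 1 library left out. In SW480 co-activator rises ranged from 1 to 3 and falls from 5 to 10 over left-out libraries. In SW620 co-activator rises ranged from 0 to 1 and falls from 1 to 4, rises of the repressor list from 1 to 2 and falls from 0 to 2, and destruction complex rises from 0 to 1. The repressor list of SW620 had 2 rises in 1 fit of all libraries, and 2 rises and 1 fall with no filter and in DESeq2. The TCF7L1 share moved by -3.80 to -3.07 percentage points in SW480 and -0.12 to 0.19 in SW620 with 1 library left out. With coding length the summed TLE level of SW480 changed by -3.84 TPM with dnLEF1 (an alternative chosen after seeing the data), the reverse of the direction by merged exons, and the TCF7 share of TCF/LEF mRNA was 4.92 points higher in SW620 GFP than in SW480 GFP (adjusted exact permutation p = 0.0312). The cause of these shifts was not tested, other than the length itself.

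Same-numbered libraries deviated together with correlations of -0.07 to 0.22 in SW480, -0.0045 to 0.25 in SW620 and -0.01 to 0.15 between GFP groups, and since not every pair was above 0.1 the numbers were not taken to pair the samples. In SW620 replicates 1, 3 and 4 were each above 0.1 and best matched by their own number, and replicate 2 was not. With the replicate number as a block, SW620 had 676 falls against 324 over all genes, 1 rise and 4 falls of co-activators, 3 rises and 2 falls of the repressor list and 7 falls of membrane partners. The cause was not tested.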
